A study of Triticum aestivum and Triticum turgidum subsp. durum with 27 samples.

Results

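The xanthophylls are the oxygenated carotenoids of the chloroplast, and abscisic acid (ABA), the hormone that plants accumulate when water is short, is made from them. β-carotene hydroxylase (β-OHase) adds hydroxyl groups to the rings of β-carotene and yields zeaxanthin, zeaxanthin epoxidase (ZEP) turns zeaxanthin into violaxanthin, and violaxanthin de-epoxidase (VDE) runs the step backwards in strong light, when zeaxanthin helps the leaf to dissipate excess energy. The cleavage enzyme 9-cis-epoxycarotenoid dioxygenase (NCED) then releases xanthoxin, which leaves the chloroplast and is converted to abscisic aldehyde by xanthoxin dehydrogenase (XanDH) and to ABA by abscisic aldehyde oxidase (AAO).

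The enzymes described here are those on both sides of the NCED step, as listed by the study for the wheat array: 3 probe sets for β-OHase, 2 for ZEP, 1 for VDE, 3 for XanDH and 1 for AAO. These 10 probe sets were found by their identifiers among the 61179 wheat probe sets of the value table, and all listed for these enzymes were kept, whatever their values. The enzymes themselves were chosen with earlier results of these data known. Another 22 probe sets of the same list, for phytoene synthase (PSY), phytoene desaturase (PDS), ζ-carotene desaturase (ZDS), lycopene β-cyclase (LYC-β) and NCED, served for comparison. Enzyme names are the study's own, and only the VDE probe set Ta.275.1.S1_at also had a gene in the array's annotation used here (LOC542859).

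The samples were glumes, green bracts that enclose the florets of the ear, collected during grain filling from the durum wheat cultivar Creso (Triticum durum, genomes A and B), the bread wheat cultivar Chinese Spring (CS, Triticum aestivum, genomes A, B and D) and CS_5AL-10, a single deletion line of Chinese Spring in which the end of chromosome arm 5AL is missing. Each genotype was kept at a soil water content of 28% (control, CTRL), 18% (mild stress, MS) or 12.5% (severe stress, SS). From 3 days after anthesis the soil of the stressed plants was left to dry to these levels, while the controls were still watered. The labels place the harvest at day 7 in Creso and at day 10 in the bread wheats, whereas the study's methods name later days. With each of these 9 groups on 3 arrays, described as biological replicates, there were 27 arrays, and p-values measure the spread between these replicates. The genotype field of the CS_5AL-10 samples reads CS, and they were assigned to the deletion line by their titles. Species and the labelled day of harvest varied together and cannot be told apart.

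Values are deposited linear intensities. For the tests they were taken as log2(intensity + 16), centred on a common array median and compared with limma, and a probe set was called at a Benjamini-Hochberg adjusted p under 0.05 and a difference of at least 2-fold. All log2 differences below are on this scale, which understates the change of dim probe sets, and "called" has this meaning throughout. Testing was limited to probe sets that exceeded the median of their array in every replicate of 1 or more groups, which held for 34089 of 61179. Of the 10 probe sets, 7 were tested. The ZEP probe set Ta.26877.1.A1_at (intensity 1.21 to 95.1, median 29.7) and the XanDH probe sets TaAffx.107320.1.S1_at (0.85 to 92.8, median 20.7) and TaAffx.113098.1.S1_at (4.3 to 109, median 25) were above the array's median on only 1, 1 and 2 of the 27 arrays and were not tested. Intensities of different probe sets are not compared with each other, since their probes differ.

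The array medians were 59.1 to 99.1 before centring, with replicate correlations of 0.929 to 0.966. Signal of grain storage proteins varied between arrays, and whether it came from grain in the sample was not tested: the mean log2 value of 11 such probe sets ran from 5.11 to 11.39, and none of the 11 was above the median on every array. On 5 arrays (Creso MS replicate 1, CS MS replicate 3, CS SS replicate 2, CS_5AL-10 MS replicate 1 and CS_5AL-10 SS replicate 2) this mean lay more than 2 log2 units from both other arrays of the group. A green tissue list held 23 probe sets, picked by names of light-harvesting or chlorophyll a/b-binding proteins or of the ribulose bisphosphate carboxylase small subunit. Of these 23, 17 exceeded the array median throughout, as did all 4 of a pollen and anther list. Both lists were picked by name from the probe sets that the study reported as changed by drought in these samples. No glume-specific marker was among the lists.

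**Figure D1:**
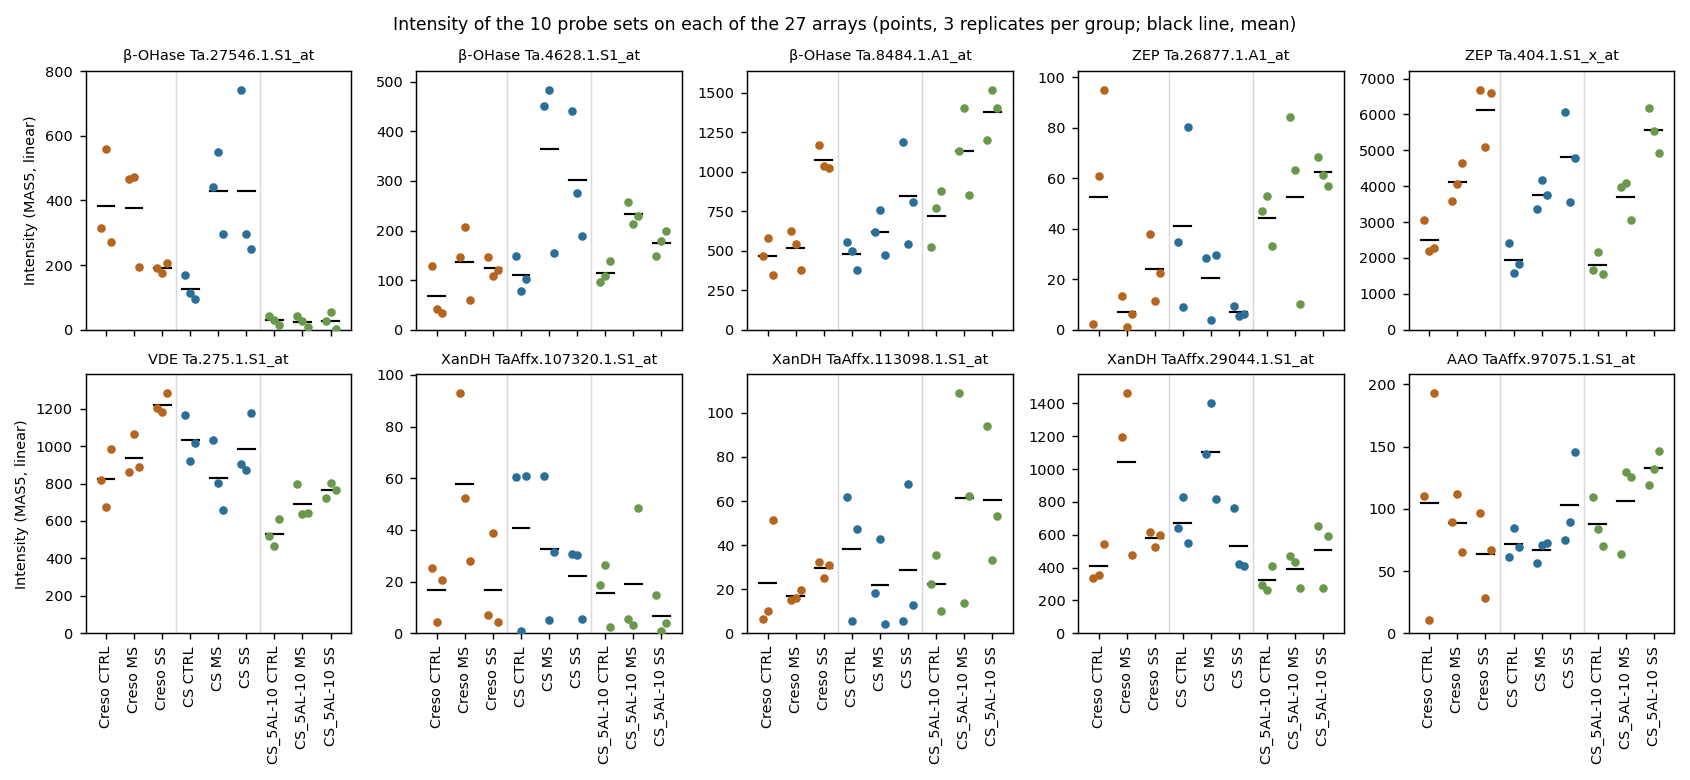
Linear intensity of the 10 probe sets (one panel each) on each of the 27 arrays. Points are arrays, 3 for each of the 9 genotype by treatment groups, and black lines are group means, on a separate axis from 0 in each panel. The ZEP probe set Ta.404.1.S1_x_at climbed from 1560 to 3071 in the controls to 3566 to 6687 at SS, and the β-OHase probe set Ta.27546.1.S1_at stayed at or below 53.2 on all 9 CS_5AL-10 arrays.

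The drought calls fell on β-OHase and ZEP. Among 63 tests (7 probe sets in 9 drought comparisons) 12 were called, all of them higher under the drier condition, and they belonged to the ZEP probe set Ta.404.1.S1_x_at and the 3 β-OHase probe sets. VDE, XanDH and AAO had no call. Over all tested probe sets, 0.232% (SS against MS in CS) to 7.32% (SS against CTRL in Creso) were called in a single drought comparison. These shares count both directions, and the share called higher was not counted. Of all tested probe sets 16.2% were called in at least 1 of the 9 drought comparisons, against 4 of these 7.

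By comparison, severe stress against control gave 2 of 7 calls in Creso (7.32% of all tested probe sets were called), 3 of 7 in CS (5.87%) and 2 of 7 in CS_5AL-10 (5.69%). The median log2 difference of the 7 was 0.70, 0.81 and 0.63 in these 3 genotypes, against 0.13, 0.06 and 0.06 over all tested probe sets. Mild stress against control gave 3 of 7 in CS (2.32%) and 1 of 7 in CS_5AL-10 (2.28%). In Creso it gave 0 of 7 by limma (1.28%), with 3 at an unadjusted p under 0.05 and 0 by the methods' t-test. From mild to severe stress 1 of 7 was called in Creso (2.68%). In CS (0.232%) and CS_5AL-10 (0.364%) limma called 0 of 7 at this step, with 1 at an unadjusted p under 0.05 in each, and the methods' t-test at an unadjusted p under 0.05 and 2-fold gave 1 and 0.

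**Figure D2:**
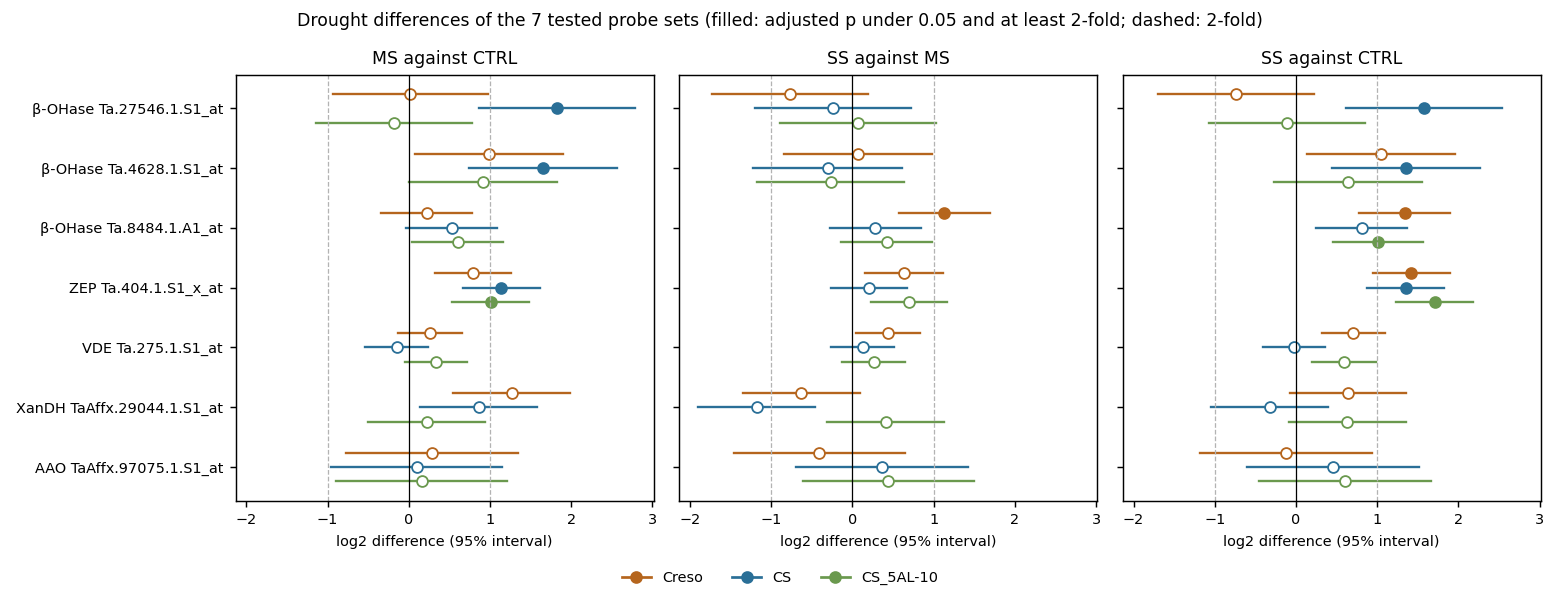
Log2 differences (x axis) of the 7 tested probe sets (y axis) for the 3 pairs of treatments, by genotype, with 95% confidence intervals. Filled symbols were called and dashed lines mark 2-fold. All 12 filled symbols lie to the right of 0, and at SS against CTRL ZEP is filled in all 3 genotypes.

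The ZEP probe set was the only 1 of the 7 called at severe stress in all 3 genotypes. In Creso, Ta.404.1.S1_x_at read 3071, 2181 and 2264 in CTRL, 3596, 4055 and 4658 at MS, and 6687, 5084 and 6599 at SS. In CS it read 2411, 1567 and 1826 in CTRL, 3364, 4173 and 3745 at MS, and 6080, 3566 and 4777 at SS. In CS_5AL-10 it read 1650, 2163 and 1560 in CTRL, 3977, 4101 and 3044 at MS, and 6181, 5547 and 4938 at SS. By intensity every MS and SS array was above every CTRL array of its genotype, while MS and SS overlapped in CS. After centring, Creso MS replicate 1 (log2 11.86) fell just below Creso CTRL replicate 1 (11.89). Severe stress raised ZEP by 1.42 (SE 0.23, adjusted p = 1.74e-04) in Creso, 1.35 (SE 0.23, adjusted p = 4.43e-04) in CS and 1.71 (SE 0.23, adjusted p = 2.5e-05) in CS_5AL-10 on the log2 scale, n = 3 per group in limma. Of all tested probe sets, 0.701% were called higher at SS in all 3 genotypes.

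In each genotype the fitted ZEP difference from CTRL to MS exceeded that from MS to SS, although this was not tested. The MS against CTRL difference was called in CS (1.14, adjusted p = 0.00569) and CS_5AL-10 (1.01, adjusted p = 0.0125), and in Creso it measured 0.79 (adjusted p = 0.0781). The step from MS to SS was not called in any genotype, with differences of 0.63, 0.20 and 0.70 in Creso, CS and CS_5AL-10 (limma adjusted p = 0.132, 0.772 and 0.165). No difference in response between genotypes passed the test: at SS, Creso minus CS was 0.08 (95% interval −0.59 to 0.75, adjusted p = 0.935) and CS_5AL-10 minus CS was 0.36 (−0.31 to 1.03, adjusted p = 0.896), so that a 2-fold difference between CS_5AL-10 and CS lies within the interval. On the centred log2 scale, on which all orders of groups are given, the 9 groups ran from Creso SS (mean log2 12.86 ± 0.23 SD), whose range stood clear of the next group, to CS_5AL-10 CTRL (10.74 ± 0.30 SD), with the 3 CTRL groups last. All other neighbours in that order overlapped.

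Between the genotypes ZEP differed by less than 2-fold. In CTRL the bread wheats lay below Creso by −0.62 (CS, adjusted p = 0.0283) and −0.69 (CS_5AL-10, adjusted p = 0.0158), and at SS CS lay below Creso by −0.70 (adjusted p = 0.0146). The median of all tested probe sets was itself shifted in these comparisons, by −0.28, −0.19 and −0.34. CS and CS_5AL-10 differed by −0.07 in CTRL and 0.29 at SS (adjusted p = 0.929 and 0.589).

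The mild stress calls of ZEP rested on single arrays. In CS the call was lost without CTRL replicate 2 (0.97, adjusted p = 0.0555), and in CS_5AL-10 without CTRL replicate 1 (0.95, 0.0548), CTRL replicate 3 (0.89, 0.0724) or MS replicate 2 (0.89, 0.0657), whereas the severe stress calls were kept whichever array was left out. The CS value at MS was also under 2-fold with quantile normalization (0.95) and without centring (0.97). The green tissue list was also higher at SS: its mean log2 value per array was 11.27 to 12 in CTRL and 12.02 to 12.28 at SS for Creso, 9.97 to 10.89 and 11.64 to 11.96 for CS, and 9.87 to 10.44 and 11.16 to 11.64 for CS_5AL-10. Since the list holds only probe sets that the study reported as changed by drought in these samples, a shift between treatments was favoured by that choice. The part of this list in the ZEP result was not tested, and in such bulk samples fewer cells of a type and less RNA per cell cannot be told apart. With the grain storage protein signal as a covariate the SS differences of ZEP were 1.42, 1.35 and 1.71. The suffix of this probe set (_x_at) marks probes that may also bind other transcripts.

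**Figure D3:**
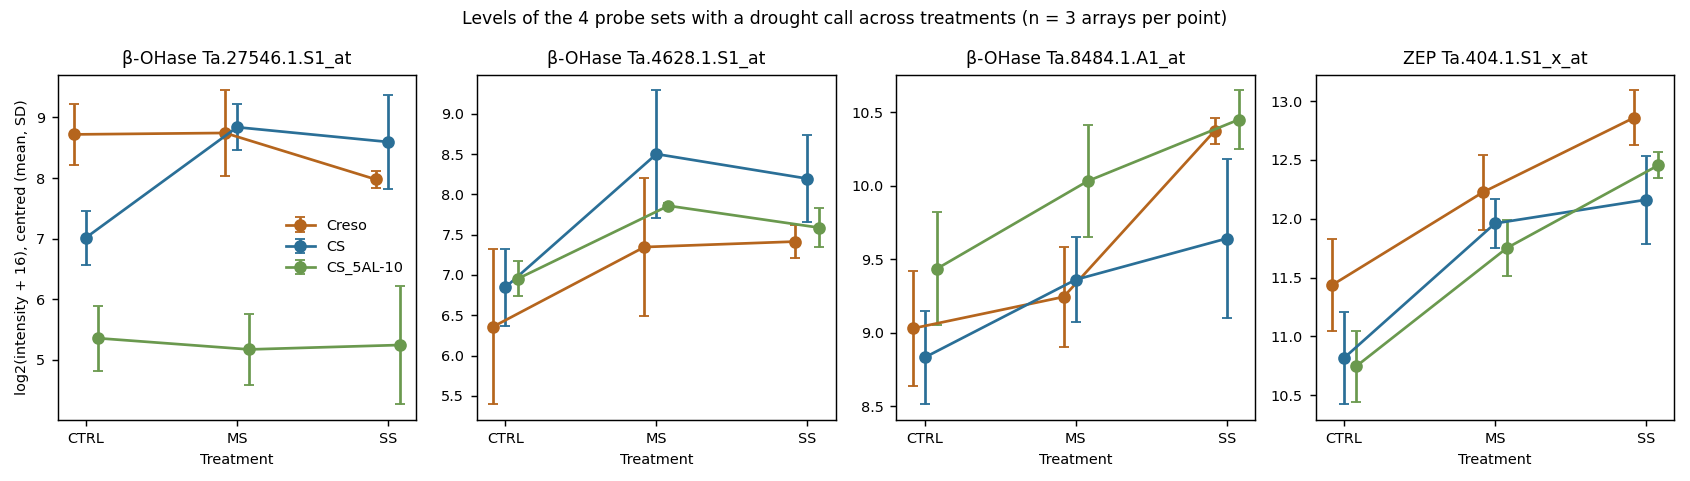
Mean log2(intensity + 16), centred, with SD (n = 3 arrays per point), at CTRL, MS and SS for the 4 probe sets with a drought call, coloured by genotype, with a separate y axis in each panel. The mean of ZEP Ta.404.1.S1_x_at was higher at each drier treatment in the 3 genotypes, and β-OHase Ta.27546.1.S1_at set CS_5AL-10 apart, with means of 5.17 to 5.35.

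The 3 β-OHase probe sets were not all called in the same genotypes and treatments. Ta.8484.1.A1_at was called higher at severe stress in Creso and CS_5AL-10, and Ta.27546.1.S1_at and Ta.4628.1.S1_at at both levels of stress in CS. Ta.27546.1.S1_at was dim throughout the deletion line. No difference between genotypes in these responses was called, and Ta.8484.1.A1_at in CS and Ta.4628.1.S1_at in the other genotypes had differences of the same sign. Across the 27 arrays Ta.27546.1.S1_at correlated with Ta.4628.1.S1_at at r = 0.144 and with Ta.8484.1.A1_at at r = −0.297, and Ta.4628.1.S1_at with Ta.8484.1.A1_at at r = 0.443. With genotype means removed these values were 0.474, 0.189 and 0.638, all positive. The arrays share genotypes and treatments, so that these values are a description. Whether the probe sets represent homoeologous copies or separate genes is not given in the sources used here.

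In Creso, Ta.8484.1.A1_at read 465, 580.2 and 346 in CTRL, 624, 539.8 and 377 at MS, and 1165, 1035 and 1024 at SS, so that the SS arrays stood apart from all others. In CS it read 556, 496 and 375 in CTRL, 618, 758 and 472 at MS, and 1184, 545 and 809 at SS, and SS replicate 2 lay within the control range. In CS_5AL-10 it read 521, 768 and 876 in CTRL, 1131, 1400 and 850.3 at MS, and 1200, 1517 and 1405 at SS, with SS above CTRL on every array.

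Ta.8484.1.A1_at was called higher at SS than CTRL in Creso (1.34, SE 0.27, adjusted p = 0.00152) and CS_5AL-10 (1.01, SE 0.27, adjusted p = 0.015), and missed the threshold in CS (0.81, adjusted p = 0.0533). In Creso the rise came at the second step: SS against MS was 1.13 (SE 0.27, adjusted p = 0.017), and MS against CTRL was 0.22 (adjusted p = 0.764). The SS response of Creso minus that of CS was 0.54 (95% interval −0.26 to 1.33, adjusted p = 0.512), so the genotypes were not shown to respond differently. Its highest group was CS_5AL-10 SS (10.45 ± 0.20 SD) and its lowest CS CTRL (8.83 ± 0.32 SD), and every pair of neighbours in the order of the 9 groups overlapped.

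The Creso call of Ta.8484.1.A1_at at SS against CTRL was kept whichever array was left out. Its Creso SS against MS call was lost without MS replicate 3 (0.94, adjusted p = 0.0758) or either SS replicate 1 or 2 (adjusted p = 0.0723 and 0.0559), and its CS_5AL-10 call without CTRL replicate 1 (0.79, adjusted p = 0.0985), SS replicate 2 (0.95, 0.0601) or, by falling under 2-fold, SS replicate 3 (0.97). Quantile normalization brought the Creso SS against MS value to 0.98, and no centring brought the CS_5AL-10 value to 0.94. The grain storage protein mean of CS SS replicate 2, the array within the control range, was 5.82, against 9.1 and 10.42 on the other CS SS arrays. With the 5 arrays of outlying grain signal left out, a setting chosen after seeing the data, the CS difference was 1.09 (adjusted p = 0.0221) and the CS_5AL-10 difference 0.95.

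Ta.27546.1.S1_at, also annotated as β-OHase, set the deletion line apart. In Creso it read 314, 559 and 271 in CTRL, 465, 472 and 194 at MS, and 191, 175 and 208 at SS. In CS it read 169, 113 and 93.7 in CTRL, 442, 549 and 297 at MS, and 743, 297 and 250.4 at SS, with every stressed array above every control array. In CS_5AL-10 it read 42.5, 29.7 and 13 in CTRL, 42.4, 25.3 and 7.7 at MS, and 27.7, 53.2 and 1.4 at SS. All 9 arrays of the deletion line were below the array's median, whereas all 18 arrays of Creso and CS were above it, and the lowest of these 18 read 93.7. The probe set thus entered the tests only through groups of Creso and CS. Its position against the median and its tests against CS_5AL-10 are therefore a description and no independent support. How many of all probe sets split in this way was not counted.

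Within CS, Ta.27546.1.S1_at was called higher at MS (1.82, SE 0.46, adjusted p = 0.0228) and SS (1.58, SE 0.46, adjusted p = 0.0276) than in CTRL. In Creso the same differences were 0.02 and −0.74 (adjusted p = 0.988 and 0.321) and in CS_5AL-10 −0.18 and −0.11 (adjusted p = 0.882 and 0.919). Values in CS_5AL-10 lay near the bottom of the intensity scale, where the offset of 16 holds differences close to 0.

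The differences between these responses of Ta.27546.1.S1_at missed the threshold. At SS, Creso minus CS was −2.32 (SE 0.66, 95% interval −3.68 to −0.97, adjusted p = 0.0542), and at MS −1.80 (adjusted p = 0.178). For CS_5AL-10 minus CS they were −1.69 at SS and −2.01 at MS (adjusted p = 0.537 and 0.286). The SS value for Creso minus CS passed the threshold under several other settings, among them quantile normalization (−2.40, adjusted p = 0.0376) and the grain storage protein covariate (−2.67, adjusted p = 0.0217), and missed it under others, with adjusted p = 0.255 at an offset of 1.

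Between genotypes in CTRL, Ta.27546.1.S1_at was called lower in CS than in Creso (−1.70, SE 0.46, adjusted p = 0.00411), the only call of 7 where 30.9% of all tested probe sets were called. It was lower in CS_5AL-10 than in Creso (−3.37, SE 0.46, adjusted p = 2e-06), again 1 of 7 where 31.1% were called. Against CS the deletion line measured −1.66 (SE 0.46, adjusted p = 0.0523) in CTRL, so that limma called 0 of 7 (2.05% of all tested), with 4 at an unadjusted p under 0.05 and 1 by the methods' t-test at an unadjusted p under 0.05 and 2-fold.

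At SS the order of Creso and CS was no longer separated (CS minus Creso 0.62, 95% interval −0.34 to 1.58, adjusted p = 0.28). There limma called 0 of 7 between these cultivars (28.6% of all tested), with 3 at an unadjusted p under 0.05 and 0 by the methods' t-test. CS_5AL-10 lay below Creso by −2.73 (SE 0.46, adjusted p = 3.2e-05, 1 of 7 called where 30.8% were) and below CS by −3.35 (SE 0.46, adjusted p = 4.2e-05, 1 of 7 where 2.15% were). Because the deletion line was below the array's median, these values give the direction and not a measured fold.

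In the order of the 9 groups of Ta.27546.1.S1_at, the 5 groups from CS MS (8.84 ± 0.38 SD) to Creso SS (7.98 ± 0.13 SD) overlapped with their neighbours, CS CTRL (7.02 ± 0.45 SD) stood clear on both sides, and the 3 CS_5AL-10 groups (5.17 to 5.35) overlapped at the bottom. The calls in CS depended on single arrays. The MS call was lost without CTRL replicate 2 (adjusted p = 0.105), CTRL replicate 3 (0.101), MS replicate 1 (0.0528) or MS replicate 2 (0.0953), and the SS call without CTRL replicate 2 (0.0962), CTRL replicate 3 (0.112) or SS replicate 1 (1.13, adjusted p = 0.162). Both were lost with an offset of 1 (adjusted p = 0.134 and 0.172). Grain storage protein signal in CS varied within the stressed groups, with a summed intensity of 67970 to 99980 in CTRL, 392 to 68740 at MS and 654 to 58190 at SS. With its mean as a covariate the differences in CS were 2.09 at MS and 1.91 at SS (adjusted p = 0.0145 and 0.01).

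The third β-OHase probe set was Ta.4628.1.S1_at. In Creso it read 128, 40.7 and 33.5 in CTRL, 146, 207 and 59.2 at MS, and 147, 107 and 121 at SS. In CS it read 148, 78.3 and 103 in CTRL, 452, 484 and 155 at MS, and 441, 277 and 189 at SS, again with all stressed arrays above the controls. In CS_5AL-10 it read 95.5, 109 and 138 in CTRL, 257, 212 and 229.7 at MS, and 149, 179 and 198 at SS, also without overlap with CTRL. It was above the array's median on 23 of 27 arrays.

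Only in CS did Ta.4628.1.S1_at pass the test against CTRL, at MS (1.65, SE 0.44, adjusted p = 0.0281) and at SS (1.35, SE 0.44, adjusted p = 0.0476). The other genotypes had differences of the same sign, 0.99 and 1.05 in Creso (adjusted p = 0.277 and 0.117) and 0.91 and 0.64 in CS_5AL-10 (adjusted p = 0.263 and 0.412). The tests of the difference gave no separation: Creso minus CS was −0.67 at MS and −0.30 at SS (adjusted p = 0.638 and 0.859), and CS_5AL-10 minus CS −0.75 and −0.71 (adjusted p = 0.712 and 0.89).

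Both calls of Ta.4628.1.S1_at were lost without CS CTRL replicate 2 (adjusted p = 0.15 at MS and 0.189 at SS) or CTRL replicate 3 (0.0912 and 0.119). The MS call was also lost without MS replicate 1 (0.0936) or MS replicate 2 (0.129), and the SS call without SS replicate 1 (0.187) or SS replicate 2 (0.0951). A fit of the CS arrays alone lost both (adjusted p = 0.0608 and 0.0721). With the grain storage protein covariate the CS differences were 1.86 and 1.60 (adjusted p = 0.0238 and 0.026). Its group means ran from CS MS (8.50 ± 0.79 SD) to Creso CTRL (6.36 ± 0.96 SD), and of the neighbours in this order only CS_5AL-10 MS and CS_5AL-10 SS did not overlap.

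VDE, which acts against ZEP in the xanthophyll cycle, differed by less than 2-fold in every comparison. In Creso, Ta.275.1.S1_at read 820.4, 674 and 984 in CTRL, 862, 1064 and 889 at MS, and 1204, 1181 and 1281 at SS, with SS above all other Creso arrays. In CS it read 1165, 919 and 1015 in CTRL, 1030, 803 and 661 at MS, and 905, 872 and 1179 at SS, all overlapping. In CS_5AL-10 it read 520.3, 465 and 608 in CTRL, 798, 636 and 642 at MS, and 721, 801 and 766 at SS, where the stressed arrays lay above the controls.

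For VDE at SS against CTRL, the adjusted p was under 0.05 in Creso (0.70, SE 0.19, adjusted p = 0.0134) and CS_5AL-10 (0.59, SE 0.19, adjusted p = 0.0413), but not in CS (−0.02, 95% interval −0.41 to 0.36, adjusted p = 0.954). The interval in CS excludes a 2-fold change in either direction. The difference of the SS responses was 0.73 for Creso minus CS (95% interval 0.18 to 1.28, adjusted p = 0.142) and 0.62 for CS_5AL-10 minus CS (0.07 to 1.16, adjusted p = 0.597), and neither passed. In all, limma called 0 of 28 differences between responses (7 probe sets by 4 differences, where 0.593%, 0.00587%, 2.53% and 0.0088% of all tested probe sets were called), with 1, 1, 2 and 2 of 7 at an unadjusted p under 0.05 for MS Creso minus CS, MS CS_5AL-10 minus CS, SS Creso minus CS and SS CS_5AL-10 minus CS.

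The lowest VDE levels were those of the deletion line. In CTRL its 3 arrays lay below all arrays of CS (−0.91, SE 0.19, adjusted p = 0.00537) and Creso (−0.83, SE 0.19, adjusted p = 8.2e-04), under the 2-fold limit in both. At SS the difference from Creso was −0.94 (adjusted p = 2.1e-04) and from CS −0.29 (adjusted p = 0.481), and CS lay below Creso by −0.64 (adjusted p = 0.00649). The median of all tested probe sets was itself shifted against Creso, by −0.19 for CS_5AL-10 in CTRL and, at SS, by −0.27 for CS_5AL-10 and −0.34 for CS. In the order of the 9 groups Creso SS was highest (10.56 ± 0.08 SD) and clear of the next, and the CS_5AL-10 groups followed each other at the end without overlap after centring, SS (9.62 ± 0.11 SD), MS (9.36 ± 0.07 SD) and CTRL (9.03 ± 0.14 SD). Under quantile normalization the CTRL difference from CS reached 2-fold (−1.04, adjusted p = 3.2e-04).

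XanDH, a short-chain dehydrogenase that acts on xanthoxin outside the chloroplast, was tested through 1 of its 3 probe sets, whose group means were highest at mild stress in Creso and CS. TaAffx.29044.1.S1_at read 339, 358 and 541 in Creso CTRL, 1195, 1461 and 478 at MS, and 619, 527 and 599 at SS. In CS it read 642, 833 and 550.2 in CTRL, 1092, 1404 and 816 at MS, and 763, 425 and 408 at SS. In CS_5AL-10 it read 292, 265 and 413 in CTRL, 473, 433 and 274 at MS, and 651, 277 and 591 at SS, with no clear order. Creso MS replicate 3 (478) lay within the Creso control range and apart from the other MS arrays.

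None of the TaAffx.29044.1.S1_at differences passed. The MS against CTRL difference was 1.27 in Creso (95% interval 0.54 to 1.99, adjusted p = 0.0622), 0.86 in CS (0.14 to 1.58, adjusted p = 0.156) and 0.22 in CS_5AL-10 (−0.50 to 0.94, adjusted p = 0.799). From MS to SS it measured −0.63, −1.18 and 0.41 in the same order (adjusted p = 0.38, 0.129 and 0.724). The Creso value crossed the threshold when fewer probe sets were tested, above the 75th percentile of the array (adjusted p = 0.0493). CS_5AL-10 measured −1.0 against CS in CTRL (adjusted p = 0.149) and −0.04 at SS (adjusted p = 0.976), and all neighbours among the 9 groups overlapped, from CS MS (10.18 ± 0.34 SD) to CS_5AL-10 CTRL (8.32 ± 0.28 SD).

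AAO, the molybdenum enzyme that makes ABA from its aldehyde, was dim on these arrays. TaAffx.97075.1.S1_at ranged from 11 to 193 (median 84.4), was above the array's median on 16 of 27 arrays and entered the tests only through CS_5AL-10 SS, the single group with all 3 arrays above it. It had no call in any comparison. Each difference between 2 groups carried an SE of 0.51, as at SS against CTRL in CS_5AL-10 (0.60, 95% interval −0.45 to 1.66, adjusted p = 0.521), Creso (−0.12, −1.18 to 0.93, adjusted p = 0.911) and CS (0.46, −0.60 to 1.51, adjusted p = 0.614), so that a 2-fold change was not detectable at this precision.

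**Figure D4:**
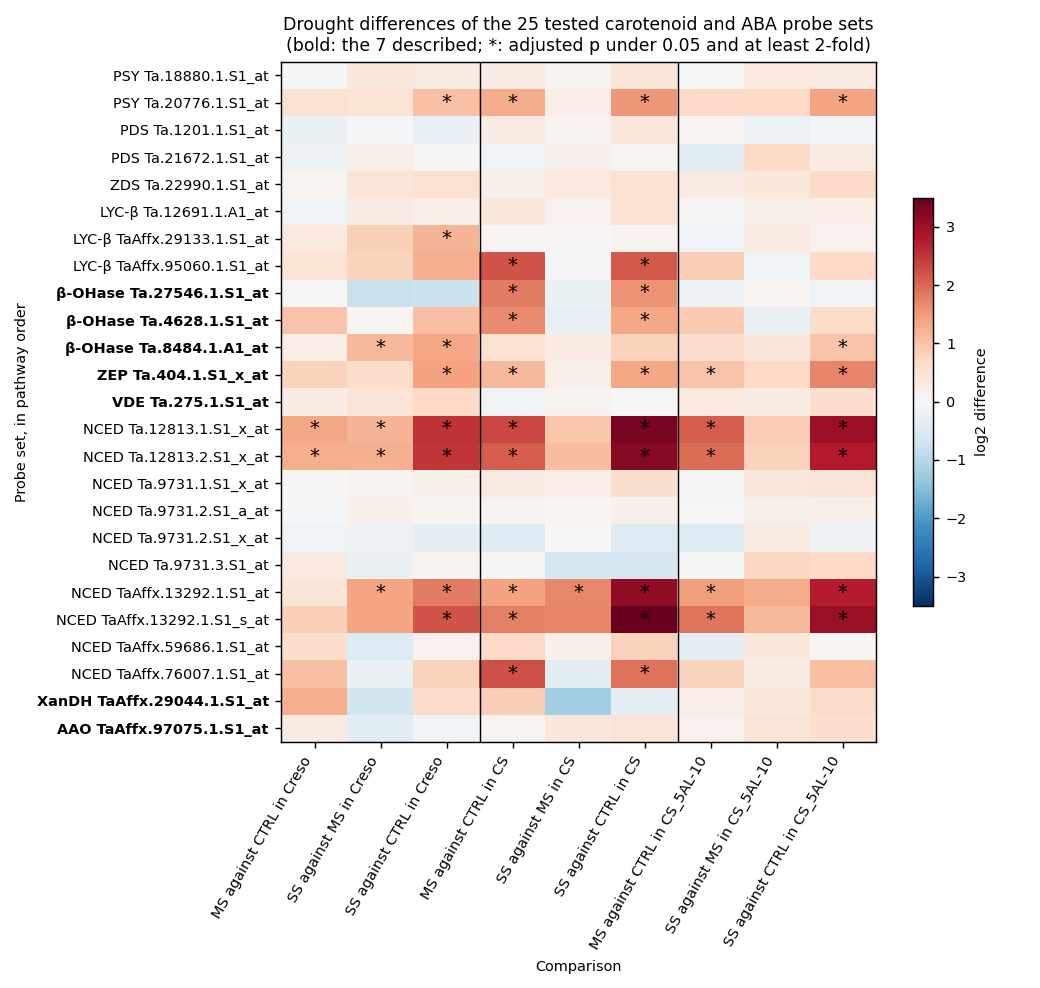
Log2 differences (colour) of the 25 tested probe sets of the carotenoid and ABA list (rows, in pathway order from PSY to AAO) in the 9 drought comparisons (columns, by genotype). Stars mark calls and bold names the 7 probe sets described. The starred cells of ZEP are joined at SS against CTRL by those of 1 PSY and 4 NCED probe sets in all 3 genotypes, and VDE, XanDH and AAO have none.

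Among the other enzymes of the list, 18 of 22 probe sets were tested and 8 had a drought call, where 16.2% of all tested probe sets had one. NCED accounted for 10 of the 18 and PSY for 2, so the counts are not of separate enzymes. At SS against CTRL 6 of 18 were called for Creso (7.32% of all tested), 7 for CS (5.87%) and 5 for CS_5AL-10 (5.69%), all higher. The percentages count both directions. At MS against CTRL it was 2 (1.28%), 7 (2.32%) and 4 of 18 (2.28%). Their median log2 difference at SS was 0.42, 0.53 and 0.55, against 0.13, 0.06 and 0.06 over all tested probe sets. PSY, the first committed enzyme of carotenoid synthesis, and NCED, which commits xanthophylls to ABA, held the 5 probe sets called higher at SS in all 3 genotypes, besides ZEP among the 7.

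The PSY probe set Ta.20776.1.S1_at rose at SS by 1.02 (Creso), 1.52 (CS) and 1.38 (CS_5AL-10) on the log2 scale. The NCED probe set Ta.12813.1.S1_x_at measured 2.54, 3.31 and 3.00, and Ta.12813.2.S1_x_at 2.5, 3.20 and 2.78. TaAffx.13292.1.S1_at measured 1.82, 3.10 and 2.75, and TaAffx.13292.1.S1_s_at 2.20, 3.48 and 3.01. These pairs carry the same cluster number and may share a transcript, and their log2 differences exceeded those of ZEP in each genotype, a comparison that was not tested.

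The probe sets whose pattern over the 27 arrays was most like that of each enzyme were taken from the 1070 tested probe sets with a name, leaving out probe sets of the same enzyme. The Arabidopsis matches among these names exist only for probe sets that the study reported as changed by drought in these samples. High correlations with a probe set called under drought were therefore favoured by the choice. For ZEP Ta.404.1.S1_x_at these were Ta.23503.1.A1_at, matched to a C2H2 zinc finger protein (Pearson r = 0.937), the NCED probe set Ta.12813.1.S1_x_at (0.928) and Ta.2407.1.S1_a_at, matched to a thioredoxin family protein (0.927), and all 3 correlations were at least 0.924 once genotype means were removed. For β-OHase Ta.8484.1.A1_at they were Ta.11849.1.S1_at, matched to a CCA1-like myb factor (0.827), Ta.13337.2.S1_x_at, a xyloglucan endotransglycosylase match (0.822), and Ta.14118.1.A1_at, matched to the plastid sigma factor SIG5 (0.813).

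For β-OHase Ta.27546.1.S1_at the likeness was weaker, though still positive, once genotype means were removed, and the parts of genotype and treatment in it were not tested. Its nearest were Ta.14091.1.S1_at, a RING finger match (r = 0.91), Ta.3581.3.S1_x_at, matched to photosystem I subunit III (0.902), and Ta.28242.2.S1_x_at, matched to a chloroplast ribonucleoprotein (0.893), which fell to 0.417, 0.312 and 0.373 once genotype means were removed. For Ta.4628.1.S1_at they were Ta.3760.2.A1_a_at (Glc1, 0.853), Ta.12053.1.A1_at, a protein phosphatase 2C match (0.814), and Ta.162.1.S1_at, named PCM or PIMT in the table (0.749). Among the described probe sets themselves the highest value was that of ZEP Ta.404.1.S1_x_at with β-OHase Ta.8484.1.A1_at, r = 0.657, or 0.815 with genotype means removed. All these arrays share the treatments, and the correlations are given as a description.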

How the data were processed

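The authors hybridised RNA of glumes to 27 Affymetrix Wheat Genome Arrays and deposited linear intensities, 1 per probe set and array, scaled by MAS5 (version not given in the sources used here), whose trimmed means lay between 497.1 and 498.5. The study's own tests used another summary (RMA), and detection calls were not used here. Of 61290 probe sets, 111 controls were dropped. Values were analysed as log2(intensity + 16), centred on the array median, in limma 3.58.1 (R 4.3.3) with 1 mean per group over all 27 arrays and a trended prior. A probe set was tested if above the 50th percentile of the array on all 3 arrays of at least 1 group, and p-values were adjusted over the 34089 tested (Benjamini-Hochberg). The 19 comparisons were 9 between treatments, 6 between genotypes and 4 differences between responses. The fit was tested on simulated data.

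The 10 probe sets and all lists were chosen with earlier results of these data known, and the list of enzymes is the study's. The text names all 10, gives the other enzymes as counts with values for those called at SS in all 3 genotypes, and names for each called probe set the 3 most alike by Pearson's r. Names of other probe sets are the array annotation or Arabidopsis matches, which the study gives for its drought-changed probe sets. Alternatives were the methods' t-test, other filters, offsets and normalizations, separate fits, a replicate block, no fold limit, a grain storage protein covariate and leaving out arrays. The number of arrays limits the precision.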

Additional observations from a re-analysis of the deposited data

How the results depend on the processing

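No result reversed under any alternative, but some calls were lost and others gained, as listed here. Counts are of the 7 tested probe sets called. After adjustment the methods' t-test called 0 in 9 of the 10 comparisons where limma called any, and 1 for CS_5AL-10 against Creso in CTRL. Of all 34089 probe sets it called only 0 to 3 in each drought comparison and 3 for CS_5AL-10 against CS at SS, so the counts of 0 there say nothing about the 7. Testing only probe sets above the 75th percentile removed Ta.27546.1.S1_at and others from the tests and left 1 in CS at MS and 1 at SS against CTRL, 0 between genotypes where 1 had been called, and 1 in Creso at MS. Of the 18486 probe sets then tested, 599 were called in CS at MS, 1426 in CS at SS and 343 in Creso at MS. With no fold limit 2 were called in CTRL for CS against Creso, 3 for CS_5AL-10 against Creso and 1 for CS_5AL-10 against CS, and at SS 3 for CS and 2 for CS_5AL-10 against Creso. Of all 34089, 16917, 16237, 1004, 16685 and 16765 were then called in these 5 comparisons, so the counts against Creso were near or below the share of all probe sets. The numbers in brackets below are calls among all 34089. An offset of 1 left 1 in CS at SS (1866) and gave 2 for CS_5AL-10 against Creso at SS (11019). An offset of 64 left 0 in CS_5AL-10 at MS (795) and 1 at SS (1667). Quantile normalization left 0 in Creso for SS against MS (871) and gave 1 for CS_5AL-10 against CS in CTRL (810). Without centring 1 was left in CS_5AL-10 at SS (2032), and 1 was called for CS_5AL-10 against CS in CTRL (765) and 1 for CS against Creso at SS (8158). The grain storage protein covariate gave 1 for CS (8874) and 2 for CS_5AL-10 (10137) against Creso at SS. The counts against Creso at SS were thus near or below the share of all probe sets. Without the 5 arrays of outlying grain signal (chosen after seeing the data) 1 was left in CS_5AL-10 at SS (2188), and 1 was called for CS_5AL-10 against CS in CTRL (745). The difference of SS responses, Creso minus CS, had 1 call (Ta.27546.1.S1_at) under quantile normalization (1144), no centring (1192), an offset of 64 (1091), separate fits (686), the covariate (1015) and the replicate block (773). The cause was not tested for these changes, except where fewer probe sets or arrays entered.

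Leaving out 1 array at a time gave, for MS against CTRL, 0 to 1 calls in Creso, 0 to 3 in CS and 0 to 1 in CS_5AL-10. For SS against CTRL it gave 2 to 3, 1 to 3 and 1 to 2, and for SS against MS in Creso 0 to 1. Among all 34089 the calls for MS against CTRL were then 265 to 703, 285 to 1215 and 477 to 633. For SS against CTRL they were 1995 to 2620, 1317 to 2357 and 1457 to 1982, and for SS against MS in Creso 492 to 937. Between genotypes in CTRL it gave 1 to 2 for CS and 1 to 2 for CS_5AL-10 against Creso, and 0 to 1 for CS_5AL-10 against CS, which at SS had 1 to 2. For the difference of SS responses, Creso minus CS, it gave 0 to 1. Among all 34089 the calls in CTRL were then 9792 to 10767 for CS against Creso, 9844 to 10531 for CS_5AL-10 against Creso and 433 to 676 for CS_5AL-10 against CS. At SS CS_5AL-10 against CS had 519 to 737, and the difference of SS responses 477 to 907.

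Arrays of one genotype that share a replicate number deviated from their group means with a mean correlation of −0.04 (−0.57 to 0.21, 27 pairs), so the numbers were not taken to pair the samples. With the replicate block 1 was called for CS_5AL-10 against CS in CTRL (652 of all 34089) and 1 for the difference of SS responses, Creso minus CS (773 of all), and the other counts stayed within 1.5 times.

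Precision was limited by 3 arrays per group and by the intensity scale: without detection calls, values such as those of Ta.27546.1.S1_at in CS_5AL-10, of AAO and of the 3 untested probe sets cannot be told from background.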
